A study of Rattus norvegicus with 3 samples.

Results

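The 38 genes described here make, regulate, carry, export and break down cholesterol in the brain, and they include 3 fatty acid binding proteins. They were chosen by name, and each was found in exactly 1 row of the 30957 genes listed per rat. Messenger RNA was sequenced from motor cortex of 3 male Sprague-Dawley rats, numbered 12, 24-4 and 33. All 3 rats had cerebral ischemia and reperfusion, in which blood supply to the brain is stopped and then restored, and all 3 received electroacupuncture at GB20 (the Fengchi acupoints). The labels also give a time of 8 weeks without its starting point. With 1 group, no effect of ischemia or of electroacupuncture could be compared, so the results are levels and how far they differ among treated animals.

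The brain makes nearly all of its own cholesterol, because lipoproteins of the blood hardly cross its barrier. Synthesis runs from acetyl-CoA through mevalonate to squalene, closes the ring at lanosterol and trims lanosterol to cholesterol. Oligodendrocytes need the product for myelin. Astrocytes load it onto apolipoprotein E through ABC transporters, and neurons take such particles up through lipoprotein receptors. Surplus cholesterol is stored as ester or hydroxylated, since the hydroxylated forms can leave the tissue.

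Levels are given as FPKM (fragments scaled to gene length and to library size), which are per length and so allow genes to be set beside each other within a rat. All 38 genes had a mean FPKM of at least 1 and entered the test. Between them the means ran from 2.87 for Ch25h to 1255 for Apoe, and 29 of the 38 lay above the median of the 13754 genes tested. Depth was estimated at 15320000, 17220000 and 12990000 fragments in rats 12, 24-4 and 33, so an FPKM of 1 over 1 kb rested on 15.3, 17.2 and 12.99 fragments. Every neuron marker of the list used to check the tissue was measured in every rat. Because FPKM is relative to the library, fragments of the mitochondrial genome enter every value. That genome held 26.6%, 14.4% and 20.9% of the summed FPKM in the same order. Leaving it out and scaling the other genes to the same sum adds 0.45, 0.22 and 0.34 to their log2 FPKM.

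The rats also differed in markers of cell types, which bears on every comparison between them. Summed FPKM of 7 neuron markers was 2926, 2345 and 1577 in rats 12, 24-4 and 33, and no neuron marker was highest in rat 33. Of the 7, 5 were highest in rat 12 and 2, Syp and Slc17a7, in rat 24-4. Snap25 alone had 1178, 379 and 440, and its fall from rat 12 to rat 24-4 exceeded that of the sum. Summed FPKM of 9 oligodendrocyte markers was 5698, 7364 and 12721, and all 9 were highest in rat 33. All 7 microglia markers (summed FPKM 160, 245 and 409), all 7 activated macrophage markers (52.8, 149.5 and 339) and all 5 measured reactive astrocyte markers (336, 1077 and 1995) were highest there too. Of 7 astrocyte markers, 4 were highest in rat 33 and 3 in rat 24-4. Choroid plexus markers summed to 3324, 129 and 13115, and 4 markers of meninges and fibroblasts to 27.3, 27.2 and 91.0. The precursor marker Neu4 and the macrophage marker Cst7 were listed at 0 in at least 1 rat. In tissue RNA, fewer cells of a type and less RNA per cell cannot be told apart, and the part of these markers in the values below was not tested.

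**Figure D1:**
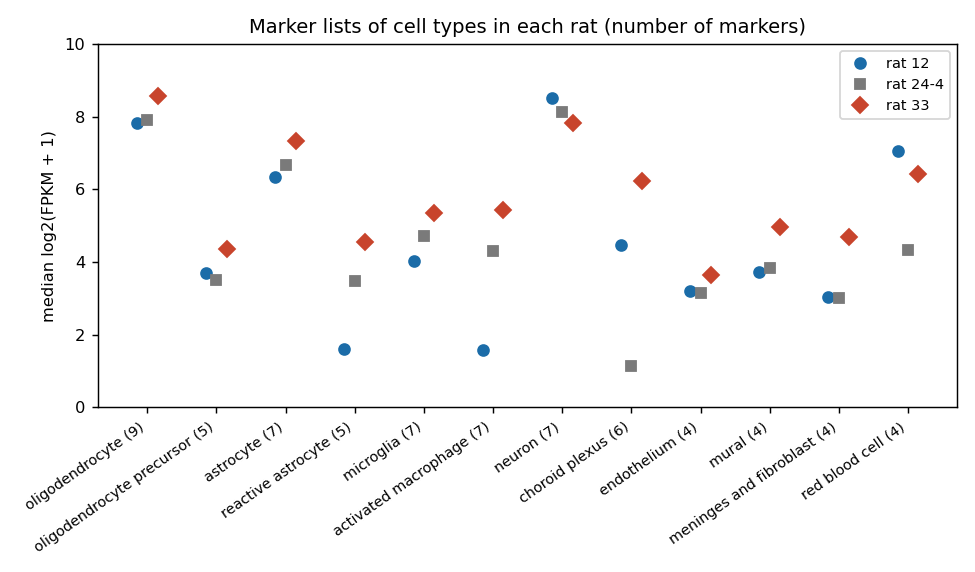
Median log2(FPKM + 1) of 12 marker lists (y axis) in rats 12 (circles), 24-4 (squares) and 33 (diamonds), with the number of measured markers per list. The neuron list is lowest in rat 33, while the lists of activated macrophages and reactive astrocytes are lowest in rat 12 and highest in rat 33.

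The test for genes that vary between rats more than genes of their level do called none of the 38. With limma, 0 of 38 passed at an adjusted p under 0.05, where 0.102% of all genes tested did, and the lowest adjusted p was 0.394 for Fabp7. At an unadjusted p under 0.05 stood 5 of the 38, or 13.2%, beside 5.96% of all genes tested. These 5 were Fabp7, Idi1, Apod, Abca1 and Cyp7b1. With 3 rats the test has little power at the spread most members showed, as simulated data also showed, so the absence of calls does not show that the genes were level. The fold differences below are descriptions of these 3 animals.

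Over the 3 rats, synthesis genes lay closer together than the other members. In the count of genes with at least 2-fold spread, that contrast rested on rat 33. The highest rat had at least 2 times the FPKM of the lowest in 12 of the 38 genes, or 31.6%, beside 30.0% of all genes tested. By role, these were 2 of 18 synthesis genes and 10 of the other 20. The median ratio of highest to lowest was 1.40 for synthesis genes and 1.97 for the other members, beside 1.64 for all genes tested. No test was made of this difference. Without rat 33 the count of 12 became 4 (Hmgcs1, Idi1, Fabp7 and Fabp5), without rat 24-4 it became 8 and without rat 12 it became 9. By role, the count without rat 33 was 2 of 18 synthesis genes and 2 of the other 20. The median ratios and the share over all genes tested were not computed with a rat left out.

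**Figure D2:**
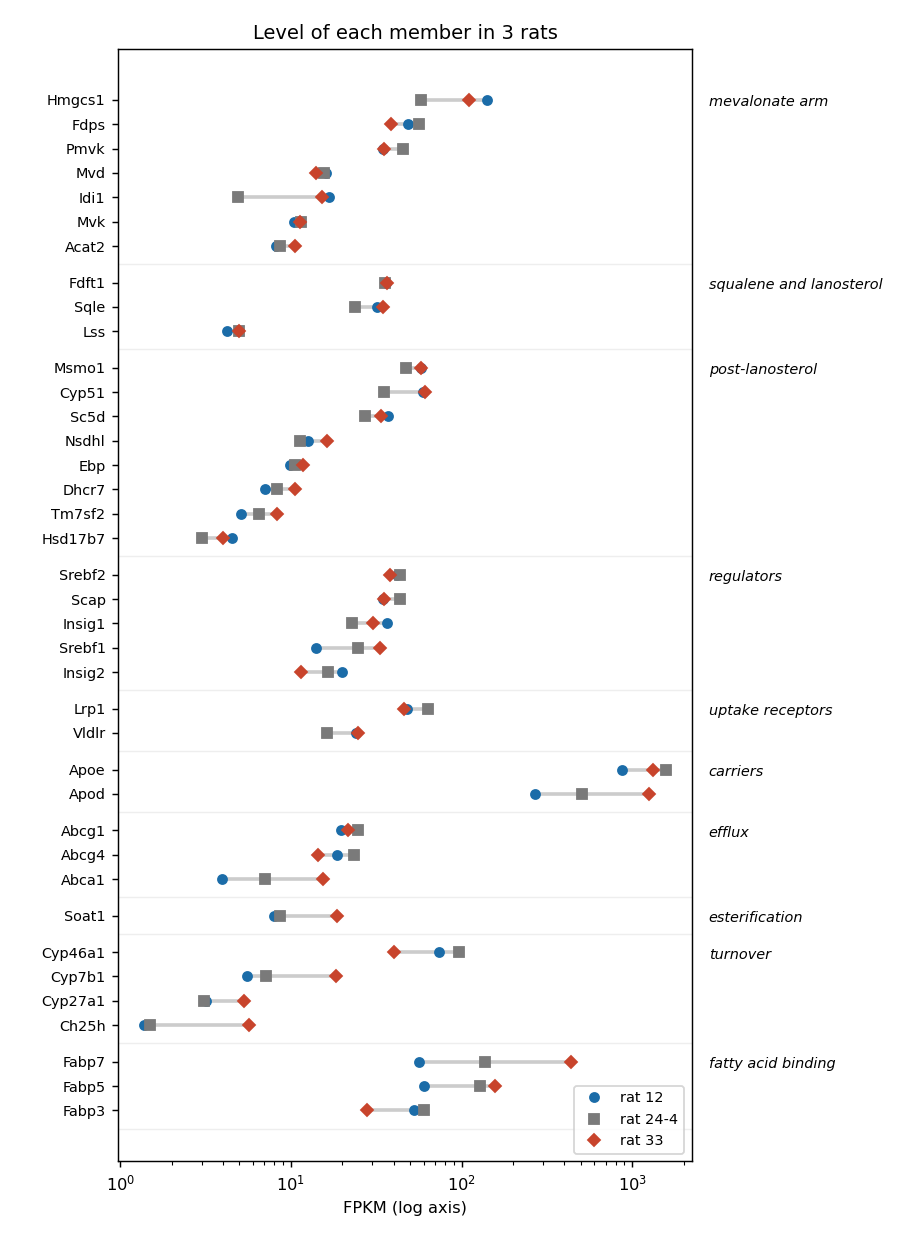
FPKM of each of the 38 genes (x axis, log scale) in rats 12 (circles), 24-4 (squares) and 33 (diamonds), grouped by role and ordered by mean within a role, with a bar from the lowest to the highest rat. Of the synthesis genes, only Hmgcs1 and Idi1 have bars of at least 2-fold. Fabp7, Apod, Abca1 and the turnover genes except Cyp27a1 also have such bars.

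Of the mevalonate arm, which turns acetyl-CoA into farnesyl diphosphate, Hmgcs1 and Idi1 differed most between rats and were low in the same rat. Hmgcs1, the cytosolic HMG-CoA synthase (Rnor_6.0, chr2:52431601-52445055), had an FPKM of 140.4, 58.1 and 110.2 in rats 12, 24-4 and 33. Idi1, which isomerises isopentenyl diphosphate (chr17:57976268-57984036), had 16.6, 4.93 and 15.2 in the same order. Rat 24-4 was thus the low one for both, by 2.42 and 3.38 times against the highest rat. The limma adjusted p was 0.964 for Hmgcs1 and 0.714 for Idi1. The Idi1 locus overlaps the opposite-strand gene Wdr37 by 100 bp, and the like-named Idi2 row was listed at 0 in all rats.

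The other 5 genes of this arm differed less, by 1.10 times for Mvk up to 1.45 times for Fdps. Mvk, the mevalonate kinase, had 10.4, 11.5 and 11.2. Pmvk, the next kinase, had 34.8, 45.2 and 35.3, and Mvd, the decarboxylase that follows, had 16.0, 15.5 and 14.0. Rat 24-4 was the highest for Pmvk, unlike for Hmgcs1. Fdps, which builds farnesyl diphosphate, had 48.6, 55.9 and 38.7. Acat2, the cytosolic thiolase at the head of the route, had the lowest mean of the arm, with 8.18, 8.59 and 10.5. In rat 24-4, however, Idi1 was lower, at 4.93. Within rats, Hmgcs1 exceeded Fdps by 1.51, 0.05 and 1.49 on the log2(FPKM + 1) scale, so the gap was almost closed in rat 24-4.

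At the squalene step, levels fell into a high pair and a low gene. Fdft1, the squalene synthase, had 35.9, 35.5 and 36.4 in rats 12, 24-4 and 33, the smallest ratio among the 38 at 1.02. Sqle, the squalene epoxidase often named as a second control point of the route, had 31.8, 23.6 and 34.4. Lss, which closes the ring to lanosterol, had only 4.22, 4.94 and 4.98. Lss lay below Sqle by 2.42 ± 0.32 on the log2(FPKM + 1) scale (SD, n = 3 rats), with the same sign in all rats.

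After lanosterol, Msmo1 and Cyp51 had the highest levels. The sterol methyl oxidase gene Msmo1 had 57.8, 47.4 and 58.2, and Cyp51, the lanosterol demethylase, had 59.1, 35.3 and 61.4. Msmo1 was the higher of the pair in rat 24-4 only. Sc5d, a late desaturase, had 37.1, 27.1 and 33.6. All 3 were lowest in rat 24-4. Lower levels were held by Nsdhl (12.6, 11.4 and 16.3), the isomerase gene Ebp (9.89, 10.5 and 11.7) and Dhcr7, the last reductase of one branch (7.04, 8.31 and 10.5). The reductase gene Tm7sf2 had 5.10, 6.50 and 8.24, and Hsd17b7, a keto-reductase of the demethylation steps, was lowest at 4.51, 3.01 and 4.02. Tm7sf2 shares 1066 bp with Vps51 on the same strand, and the Hsd17b7 locus lies within an opposite-strand locus that was at or near 0 in every rat.

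Rat 24-4 was the lowest rat for 9 of the 18 synthesis genes. Across all 38 genes it was lowest in 12, or 31.6%, beside 33.3% of all genes tested, so the share over the whole set was near the background. A stricter count, chosen after the values were seen, took genes whose level in rat 24-4 was at least 1.2 times below both other rats. It held 9 genes (Hmgcs1, Idi1, Sqle, Cyp51, Msmo1, Hsd17b7, Sc5d, Insig1 and Vldlr), which is 23.7% of the 38 beside 21.0% of all genes tested. With the mitochondrial genome left out the count was 10, and with each rat scaled to the median ratio of tested genes it was 7. The share of all genes tested that meet the stricter count was not computed under these scalings. The background moves with them, since 43.5% of genes tested were lowest in rat 24-4 under the first and 33.2% under the second.

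The promoters of the 2 synthesis genes with the widest spread are set beside that of Mvk, with the narrowest spread in the same arm, and that of Fabp7, with the widest of all. They come from RefSeq on assembly GRCr8, run from 250 bases before to 50 after the gene start, and are written 5′ to 3′ along the gene. Capitals mark CCAAT and its reverse complement ATTGG, the letters bound by the factor NF-Y, a known partner of the sterol-sensing factors. Hmgcs1 is chr2:53382054-53382353 on the + strand, Idi1 chr17:66547475-66547774 on the - strand, Mvk chr12:47819454-47819753 on the - strand and Fabp7 chr20:37669356-37669655 on the + strand.
Hmgcs1: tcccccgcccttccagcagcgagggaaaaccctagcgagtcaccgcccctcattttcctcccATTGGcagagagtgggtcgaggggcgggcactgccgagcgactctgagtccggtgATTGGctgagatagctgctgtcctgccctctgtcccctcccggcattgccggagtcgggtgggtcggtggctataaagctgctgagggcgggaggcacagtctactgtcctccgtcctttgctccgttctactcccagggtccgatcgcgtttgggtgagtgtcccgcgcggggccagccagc
Idi1: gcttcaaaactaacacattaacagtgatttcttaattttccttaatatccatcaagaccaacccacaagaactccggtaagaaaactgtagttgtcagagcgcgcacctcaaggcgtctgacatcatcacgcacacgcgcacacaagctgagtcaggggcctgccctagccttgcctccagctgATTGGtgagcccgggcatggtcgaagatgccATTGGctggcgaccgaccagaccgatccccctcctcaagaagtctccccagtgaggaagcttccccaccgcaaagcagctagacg
Mvk: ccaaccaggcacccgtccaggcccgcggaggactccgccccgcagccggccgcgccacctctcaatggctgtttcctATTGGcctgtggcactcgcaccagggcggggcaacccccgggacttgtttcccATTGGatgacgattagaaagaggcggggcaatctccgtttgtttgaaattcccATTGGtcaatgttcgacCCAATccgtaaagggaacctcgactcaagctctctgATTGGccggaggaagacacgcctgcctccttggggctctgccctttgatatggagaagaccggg
Fabp7: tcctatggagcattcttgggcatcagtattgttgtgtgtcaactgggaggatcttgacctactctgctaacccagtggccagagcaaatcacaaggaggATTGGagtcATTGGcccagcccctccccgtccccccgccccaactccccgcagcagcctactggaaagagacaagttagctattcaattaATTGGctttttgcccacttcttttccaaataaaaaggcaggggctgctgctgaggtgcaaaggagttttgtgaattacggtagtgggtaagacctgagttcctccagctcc

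CCAAT letters stood in the level gene as in the uneven ones. Of the 38 genes, 32 had a promoter in the table, and Pmvk, Fdft1, Sqle, Abcg1, Cyp7b1 and Fabp5 did not. CCAAT, on either strand, was found for 12 of 15 synthesis genes (80.0%) and 10 of 17 other members (58.8%), beside 38.3% of the genes tested and 39.6% of all genes in the table. The Sp1 letters GGGCGG were found for 13 of 15 and 12 of 17, beside 64.4% of the genes tested. The E-box CACGTG, which reads the same on both strands, was found for 4 of 32 (Abca1, Insig1, Sc5d and Scap), beside 9.75%. The sterol regulatory letters TCACNCCAC were in 0 of the 32 windows, beside 1.24% of the genes tested. At that share 0 is the likely count for 32 windows. Only this string was searched, so the count does not show that sterol regulatory elements are absent. ATTGG and GGGCGG can share 2 end letters, and a match is a description of the sequence, not of binding.

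Among the regulators, Srebf1 differed most between rats while Srebf2 and Scap were close. Srebf2, the main transcription factor of sterol synthesis genes, had 42.1, 43.5 and 38.02 in rats 12, 24-4 and 33, and Scap, the escort that carries it to the Golgi, had 34.8, 43.7 and 35.2. Srebf1, which acts mainly on fatty acid synthesis genes (chr10:46570996-46593009), had 14.0, 24.6 and 33.4. Its level in rat 33 was 2.39 times that in rat 12, with a limma adjusted p of 0.954. Srebf2 exceeded Srebf1 by 1.52, 0.80 and 0.18 on the log2(FPKM + 1) scale. The gap was thus widest in rat 12 and nearly closed in rat 33. The Srebf1 locus overlaps the opposite-strand gene Rai1 by 588 bp, and Rai1 had 11.6, 12.8 and 10.2.

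The 2 Insig genes, whose proteins hold the escort in the endoplasmic reticulum when sterols are plentiful, did not share an order of rats. Insig1, itself a sterol-regulated gene, had 36.5, 22.9 and 30.1 and was lowest in rat 24-4, as Hmgcs1 and Idi1 were. Insig2 had 19.9, 16.4 and 11.4 and was lowest in rat 33. Insig1 was the higher of the pair in every rat, by 0.88 ± 0.44 on the log2(FPKM + 1) scale.

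Of the uptake receptors, Lrp1 was the higher and the difference was widest in rat 24-4. Lrp1, a large endocytic receptor for apolipoprotein E (chr7:70846344-70926903), had 47.7, 63.2 and 45.8. Vldlr, a receptor for lipoproteins and reelin (chr1:245237736-245269205), had 24.2, 16.3 and 24.7. Rat 24-4 was thus the highest for Lrp1 and the lowest for Vldlr. Lrp1 exceeded Vldlr by 0.95, 1.89 and 0.87 on the log2(FPKM + 1) scale in rats 12, 24-4 and 33.

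The lipoprotein carriers were the most abundant of the 38 transcripts, and Apod varied far more than Apoe. Apoe, the main apolipoprotein of the brain (chr1:80612895-80617057), had 867, 1566 and 1331 in rats 12, 24-4 and 33, a mean of 1255 ± 356 (SD, n = 3). Apod, a lipocalin that binds small lipids and is known from glia and injured nerve (chr11:72705129-72726301), had 271, 508 and 1258. Rat 12 was the lowest for both, but the highest rat differed. Apod in rat 33 was 4.64 times its level in rat 12 (limma adjusted p = 0.744, unadjusted p = 0.029). Apoe exceeded Apod by 1.67 and 1.62 on the log2(FPKM + 1) scale in rats 12 and 24-4, and by 0.08 in rat 33, where the pair was almost level. The markers of oligodendrocytes and of meninges and fibroblasts, given above, were also highest in rat 33. So were those of microglia, activated macrophages and reactive astrocytes.

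Among the efflux transporters, Abca1 differed most between rats, and it lay below Abcg1 in every rat but below Abcg4 in rats 12 and 24-4 only. Abca1, which loads lipid onto apolipoproteins (chr5:69857771-69983015), had 3.93, 7.01 and 15.3 in rats 12, 24-4 and 33. Its ratio of highest to lowest was 3.90 (limma adjusted p = 0.748, unadjusted p = 0.030). Abcg1, which passes sterol to particles already lipidated, had 19.8, 24.9 and 21.6, and its neuronal relative Abcg4 had 18.5, 23.4 and 14.4. Both were highest in rat 24-4. Abca1 lay below Abcg1 by 2.07, 1.69 and 0.47 on the log2(FPKM + 1) scale, so the distance was smallest in rat 33.

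Soat1, which esterifies cholesterol for storage (chr13:74035080-74077783), stood apart in rat 33 alone. It had 8.01, 8.64 and 18.6 in rats 12, 24-4 and 33, a ratio of highest to lowest of 2.33 (limma adjusted p = 0.936). Rats 12 and 24-4 were close to each other.

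In turnover, the neuronal enzyme was lowest in the rat where the others were highest. Cyp46a1, which hydroxylates cholesterol in neurons (chr6:132242328-132273787), was the highest of the role with 73.6, 96.7 and 40.2 in rats 12, 24-4 and 33. Rat 33 was its lowest rat, with a ratio of highest to lowest of 2.40 (limma adjusted p = 0.964). The summed neuron markers were lowest in that rat as well. Their sum was highest in rat 12, where Snap25 alone had 1178, beside 379 in rat 24-4. As given above, the fall of Snap25 between these 2 rats exceeded that of the sum. Of the 7 neuron markers, 5 were highest in rat 12 and 2 in rat 24-4, the highest rat of Cyp46a1. The part of neurons in the level of Cyp46a1 was not tested.

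The other 3 turnover genes were highest in rat 33. Ch25h, an oxysterol-making enzyme of activated macrophages (chr1:252807065-252808380), had 1.39, 1.497 and 5.72. If its listed locus of 1316 bp is the whole transcript, those values rested on 28, 34 and 98 fragments, and the exact Poisson intervals at 95% were 18.6 to 40.5 in rat 12, 23.5 to 47.5 in rat 24-4 and 79.6 to 119 in rat 33. The interval of rat 33 does not overlap those of the other rats, and it covers counting error only. For Ch25h the limma test between rats gave an adjusted p of 0.841 (unadjusted p = 0.051). Cyp7b1, which breaks down oxysterols (chr2:102701903-102871257), had 5.56, 7.12 and 18.3 (limma adjusted p = 0.778, unadjusted p = 0.035). Cyp27a1, a mitochondrial sterol hydroxylase, had 3.18, 3.11 and 5.30. Cyp46a1 exceeded Cyp7b1 by 3.51, 3.59 and 1.09 on the log2(FPKM + 1) scale and Cyp27a1 by 4.16, 4.57 and 2.71, so both distances were smallest in rat 33. Activated macrophage and microglia markers were highest in rat 33 as well, as were those of oligodendrocytes, choroid plexus and meninges. The summed activated macrophage markers also rose from 52.8 in rat 12 to 149.5 in rat 24-4, between which Ch25h was nearly level. The part of cell types was not tested.

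The widest spread of all 38 genes was that of Fabp7, a fatty acid binding protein. Fabp7, the form of radial glia and astrocytes (chr20:40769586-40773349), had 56.1, 137 and 439 in rats 12, 24-4 and 33. The ratio of highest to lowest was 7.83, with a limma unadjusted p of 0.003 that did not pass adjustment (0.394). Fabp5, a form found in several glial and epithelial cells (chr2:93981656-93985378), had 60.0, 129 and 158, again lowest in rat 12 and highest in rat 33. Fabp3, the form of neurons and heart (chr5:148528725-148535565), went the other way in rat 33, with 52.5, 60.1 and 28.1. Of these 3 forms, Fabp7 and Fabp5 were lowest in rat 12 and Fabp3 in rat 33.

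The balance of the 3 forms therefore differed by rat. They lay within 0.19 of each other on the log2(FPKM + 1) scale in rat 12. Fabp7 minus Fabp5 was -0.10, 0.09 and 1.47 in rats 12, 24-4 and 33, and without rat 33 its mean was -0.0050. Fabp3 lay below Fabp5 by 0.19, 1.09 and 2.45. Astrocyte markers had medians of 6.34, 6.66 and 7.34 on that scale, with 4 of the 7 highest in rat 33 and 3 in rat 24-4. All measured reactive astrocyte markers were highest in rat 33. So were all markers of oligodendrocytes, microglia, activated macrophages, choroid plexus and meninges. The part of cell types in the levels of the 3 forms was not tested.

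**Figure D3:**
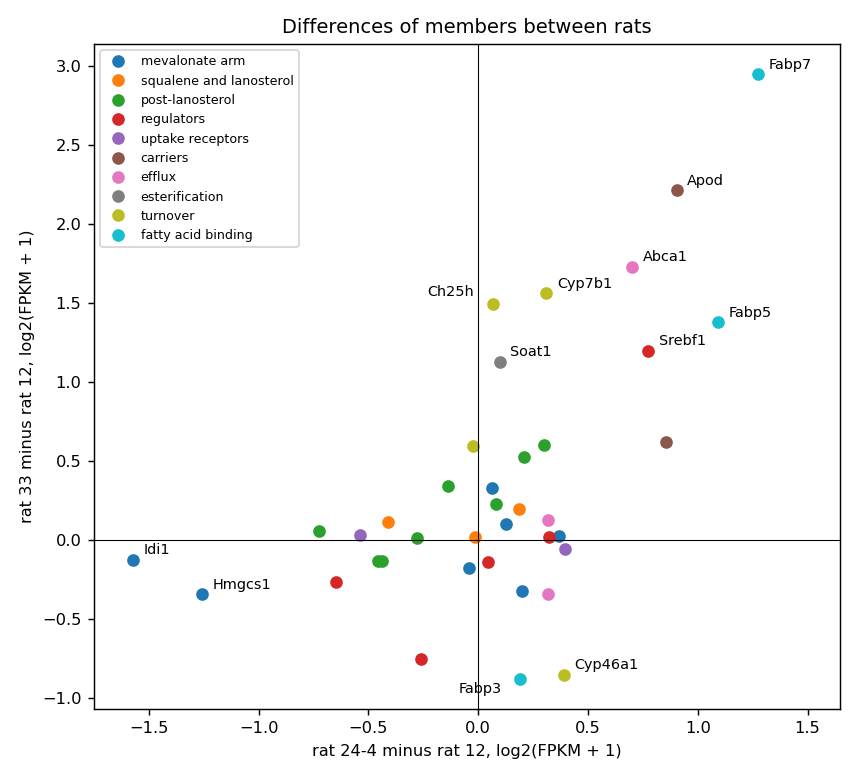
Difference of rat 24-4 from rat 12 (x axis) and of rat 33 from rat 12 (y axis) on the log2(FPKM + 1) scale, 1 point per gene, coloured by role, with the 12 genes of at least 2-fold spread named. Hmgcs1 and Idi1 lie to the left, being low in rat 24-4, Cyp46a1 and Fabp3 lie below the others, and the 8 genes at the top had at least 2 times more FPKM in rat 33 than in rat 12.

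Across roles, 8 of the 38 genes had at least 2 times the FPKM in rat 33 as in rat 12, and 0 had the reverse. They were Srebf1, Apod, Abca1, Soat1, Ch25h, Cyp7b1, Fabp7 and Fabp5, which is 21.1% of the 38, beside 13.5% of all genes tested. The reverse difference was found in 5.69% of all genes tested. No synthesis gene was among the 8. The count was 8 under both other scalings, for which the share over all genes tested was not computed. Rat 33 was the highest rat for 20 of the 38 genes, or 52.6%, beside 42.0% of all genes tested. That count depends on the scaling, since it was 17 with the mitochondrial genome left out and 14 with the median ratio, beside 41.3% and 34.3% of all genes tested. Among the 12 genes of at least 2-fold spread, the median ratio changed neither the highest nor the lowest rat. Leaving out the mitochondrial genome changed the lowest rat of Soat1 and Ch25h and the highest of Fabp3, whose rats 12 and 24-4 were close.

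Roles were compared within rats by the median of their members on the log2(FPKM + 1) scale. Uptake, here Lrp1 and Vldlr only, stood above synthesis and efflux, and turnover was lowest. Synthesis had a median of 4.01 ± 0.14 (SD, n = 3 rats), uptake receptors 5.10 ± 0.04, efflux 4.31 ± 0.29 and turnover 2.81 ± 0.61, beside 3.48 ± 0.07 for all genes tested. Uptake exceeded synthesis by 1.02, 1.22 and 1.05 in rats 12, 24-4 and 33, a difference of synthesis minus uptake of -1.10 ± 0.11. Synthesis exceeded turnover by 1.73, 1.31 and 0.55. Uptake exceeded efflux by 0.84, 0.45 and 1.09, and turnover by 2.74, 2.53 and 1.61.

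The distance to turnover was smallest in rat 33 for synthesis, uptake and efflux. Efflux exceeded turnover by 1.90, 2.08 and 0.52. Synthesis and efflux could not be ordered, because synthesis minus efflux was -0.17, -0.76 and 0.03, and its mean of -0.30 became 0.31 with means over members in place of medians. Within synthesis, the mevalonate arm exceeded the genes after lanosterol by 0.38 ± 0.22. The uptake role rests on 2 genes and efflux on 3, and the turnover median hides Cyp46a1, which lay far above the other 3. Regulators had 4.98 ± 0.26, carriers 9.69 ± 0.71 and fatty acid binding proteins 6.72 ± 0.78.

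**Figure D4:**
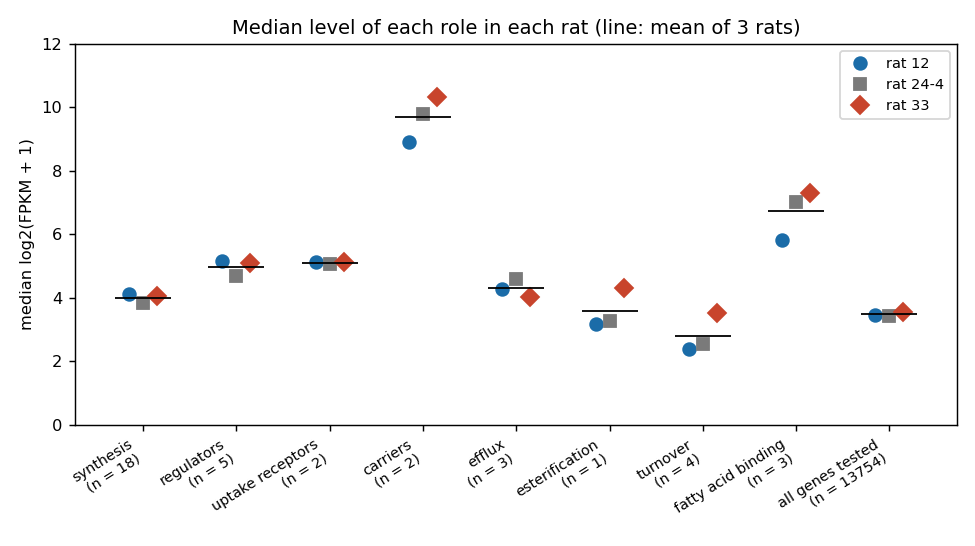
Median log2(FPKM + 1) of each role (y axis) in rats 12 (circles), 24-4 (squares) and 33 (diamonds), with a line at the mean of the rats and the number of genes under each role. Synthesis and uptake each differ little between rats, with uptake above synthesis in every rat. Turnover and esterification are higher in rat 33, and the carriers and fatty acid binding proteins are lowest in rat 12.

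For 12 pairs of genes, the difference within a rat was tested with an exact sign-flip permutation test, two-sided. The sign was the same in all rats for 11 of the 12 pairs, Fabp7 minus Fabp5 being the exception (exact permutation p = 0.75). For the 11 the exact permutation p was 0.25, the smallest that 3 rats allow, and 0.273 after Benjamini-Hochberg adjustment over the 12 pairs. No pair could pass 0.05 in this design. The largest difference was Cyp46a1 over Cyp27a1, at 3.81 ± 0.98, and the smallest of the 11 was Abcg4 under Abcg1, at -0.24 ± 0.27.

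Beyond the 38 genes, 33 further genes of sterol and lipid handling were listed, among them other synthesis enzymes, lysosomal exporters, lipases and liver X receptors. Of these, 32 were matched by name, Soat2 was listed at 0 in all rats, and 30 reached the mean FPKM of 1 needed for the test. With limma, none (0 of 30) passed after adjustment, and 3 had p under 0.05 before it, beside 5.96% of all genes tested. These 3 were Lpl, the lipoprotein lipase, Lcat, which esterifies cholesterol on particles, and Npc2, a carrier of cholesterol in lysosomes, and each was highest in rat 33. The highest rat had at least 2 times the lowest in 8 of the 30, beside 30.0% of all genes tested. Rat 33 had at least 2 times rat 12 in 7, beside 13.5%, and the reverse held for 1, Stard4, beside 5.69%.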

How the data were processed

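RNA was sequenced from motor cortex of 3 rats, 1 library each. The authors deposited FPKM values per gene, made, per the series' design text, by counting fragments per gene, normalizing and computing FPKM with a script. The submitters' processing notes name HISAT2 2.0.4, StringTie 1.3.0 and the build Rnor_6.0. Which normalization was used, and whether counting was by strand, is not given in the sources used here. Of 30957 genes, 11974 were listed at 0 in all rats.

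Short loci (up to 400 bp) gave the depth, since their low FPKM step by 1 fragment. With a tolerance of 0.02, 95.3%, 94.1% and 95.0% of 614, 592 and 639 values came out whole.

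The scale log2(FPKM + 1) was used, on which differences of low genes are understated. An intercept was fitted per gene over 13754 genes of mean FPKM at least 1 with limma 3.58.1 (R 4.3.3, trended robust prior). The ratio of residual to prior variance was tested by F, one-sided, with Benjamini-Hochberg adjustment over all genes tested. The test was tested on simulated data, where it recovered genes with large seeded differences in 1 rat and none at the smallest size seeded, which exceeds the spread of most members. Other steps ran in Python 3.11.15 with scipy 1.17.1 and pandas 2.3.3.

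All 38 members were accounted for. Members with at least 2-fold spread, and the highest and lowest of each role, were given in every rat. Some genes of the pathway are not reported here. Members and lists were chosen with earlier results of these data known. Alternatives covered the pseudocount, filter, prior, scaling, summary over members and each rat left out.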

Additional observations from a re-analysis of the deposited data

How the results depend on the processing

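The count of 0 variable genes among the 38 was found under all 9 alternatives run, which says nothing about stability, since the test has little power at the spread of most members. Over all genes tested, limma called 14, against 23 with a pseudocount of 0.1 and 0 with no filter, with the filter lowered to 0.1, with the prior fitted without robustness, or after leaving out the mitochondrial genome. It was 101 without rat 12, 0 without rat 24-4 and 66 without rat 33. The count of 12 genes with at least 2-fold spread ran from 4 to 9 with a rat left out, and the 4 came without rat 33. With means over members in place of medians, synthesis minus uptake was -0.83, uptake minus efflux 1.13 and efflux minus turnover 0.61, and synthesis minus efflux turned to 0.31; the cause was not tested. Without rat 24-4 synthesis minus efflux was -0.07. Fabp7 minus Fabp5 ran from -0.0050 to 0.78 with a rat left out, and turned sign without rat 33. The other 11 pairs kept their sign with a pseudocount of 0.1 and with each rat left out. Keeping every row or members at 0 changed nothing by construction, since each gene had 1 row and none was at 0. No paired analysis was possible because there was 1 group. Depth limits most the genes of low FPKM, such as Ch25h.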
